A study of Mus musculus with 12 samples.

Results

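The response of the liver to long-term dietary ethanol was examined in mice that lack PPARβ/δ, by setting the 3 arrays of ethanol-fed null mice against the 3 arrays of control-fed null mice, 6 of the 12 arrays in the study. The arrays were chosen by their labels alone. Null control livers came from male Pparβ/δ-/- mice of C57BL/6 background given a liquid control diet for 16 weeks, and null ethanol livers from male Pparβ/δ-/- mice whose liquid diet held ethanol at 4% (v/v) over the same time. All mice were 8 to 10 weeks old and had taken the control diet for 1 week beforehand, and 10 mice per group were fed. The other 6 arrays were wild-type (Pparβ/δ+/+) livers on the same diets, 3 per diet, and served to estimate the spread and to compare the responses. The labels do not say that each array is a separate mouse, so every error and p-value below measures the spread between these samples. They describe the null allele as one of the whole animal and do not name the part of Ppard that is disrupted.

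PPARβ/δ, encoded by Ppard, is a nuclear receptor that binds fatty acids and, with RXR, switches on genes of fatty acid oxidation and lipid handling and dampens inflammatory gene expression. Liver cells oxidise ethanol to acetaldehyde through alcohol dehydrogenase and the cytochrome P450 CYP2E1, and acetaldehyde to acetate through aldehyde dehydrogenases. The alcohol and aldehyde dehydrogenase reactions use up NAD+. Long exposure to ethanol is known to favour fat storage in hepatocytes and to activate Kupffer cells, the resident macrophages of the liver.

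Total liver RNA (100 ng per sample) was labelled and read on Mouse Gene 2.0 ST arrays (Affymetrix), whose probes are spread over the length of each transcript. Values are log2 of the deposited intensity, and a change is the mean of the ethanol arrays minus the mean of the control arrays on that scale, with the standard error from limma fitted to all 12 arrays. Of 22180 genes with a probe set of their own, 14031 were bright enough to be tested. Array medians lay between 5.55 and 5.62, and correlations between the 6 null arrays ran from 0.987 to 0.992 within controls, from 0.987 to 0.993 within ethanol and from 0.982 to 0.991 between the diets. On the first principal component of the null arrays (33.7% of the variance) all 3 control arrays scored below all 3 ethanol arrays, with ethanol array 3 (22.26) far from ethanol arrays 1 (3.63) and 2 (3.64). Control array 3 (-1.69) lay nearer to ethanol arrays 1 and 2 than to control arrays 1 (-15.33) and 2 (-12.52). The spread within each diet on this component was thus wider than the gap between the diets. Defining genes of hepatocytes were bright in every null array, among them Alb, the gene of serum albumin, at 13.92 to 14.05, and Ttr, the gene of transthyretin, at 13.77 to 13.91. The 13 hepatocyte markers tested had a median change of -0.03, and 0 of them had an unadjusted p under 0.05. Ppard itself read 7.69, 7.90 and 7.91 on the control arrays and 7.88, 7.93 and 8.06 on the ethanol arrays, inside or beside its wild-type range of 7.64 to 8.01. Its probe set therefore does not check the genotype, since the position of its probes relative to the disrupted part was not used here.

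Most genes differed little between the diets in null liver. The median size of a change was 0.115, 90% of genes lay within 0.295 of 0 and 99% within 0.586, and 17 genes differed by more than 1 (5 higher with ethanol, 12 lower). A single gene, Gca, passed a Benjamini-Hochberg adjusted p under 0.05 in limma, which is 0.00713% of the genes tested. At an unadjusted p under 0.05 there were 535 genes higher with ethanol (3.81%) and 1174 lower (8.37%), and at an unadjusted p under 0.001 there were 8 higher and 49 lower. The 3 ethanol arrays lay wholly above the 3 control arrays for 785 genes (5.59%) and wholly below them for 1819 genes (13%). The difference between the ethanol responses of the genotypes had an unadjusted p under 0.05 for 2110 genes (15%). These shares are the background against which each gene group below is read.

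The surplus of lower genes depended on how the arrays were scaled. With the genes split into 4 equal groups by brightness, 308 of the dimmest group were higher and 101 lower at an unadjusted p under 0.05, whereas in the third group 36 were higher and 459 lower, with median changes of 0.06 and -0.11. In wild-type liver the same groups of genes had median changes of -0.03 and 0.01. Of genes at an unadjusted p under 0.05, 31.3% were higher as deposited, 49.6% after quantile normalisation, 45.6% after cyclic loess and 84.1% after each array was centred on the median of the genes tested, which moved the median of all genes by 0.11. Changes are therefore given beside the median of all genes tested, -0.05, and what moved the brighter genes was not tested.

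**Figure D1:**
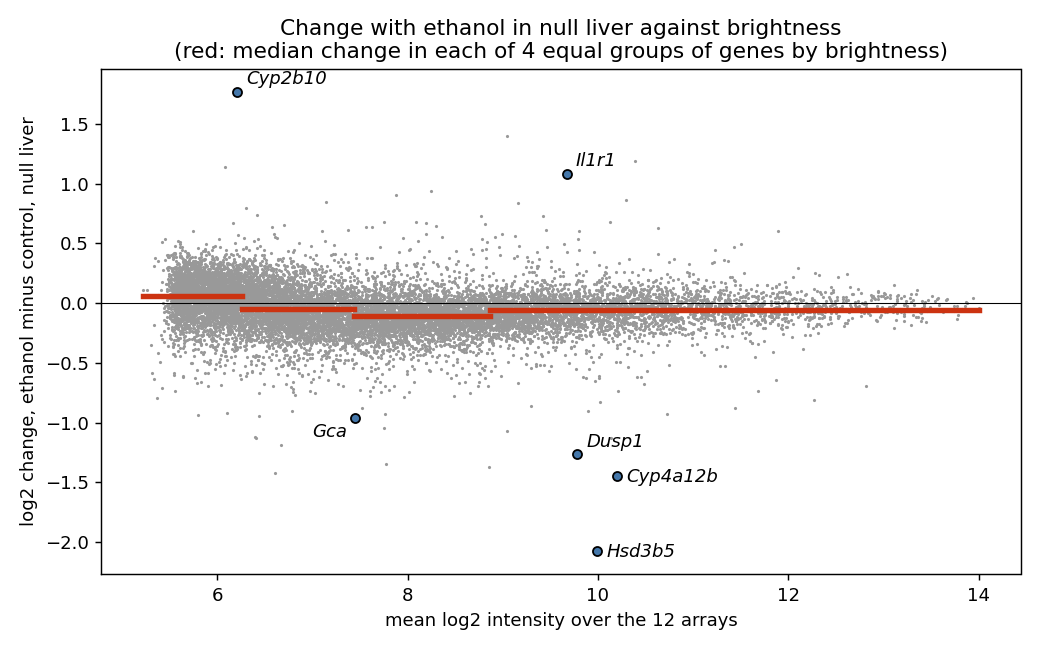
Change with ethanol in null liver (log2, ethanol minus control) against mean log2 intensity over the 12 arrays; each point is 1 of 14031 genes and red bars give the median of each of 4 equal groups by brightness. The medians are 0.06, -0.05, -0.11 and -0.06 from the dimmest to the brightest group. Marked are Hsd3b5 (-2.08), Cyp4a12b, Dusp1, Gca, Il1r1 and Cyp2b10 (1.77).

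Gca fell with ethanol. It encodes grancalcin, a calcium-binding protein of the penta-EF-hand family that is abundant in neutrophils and macrophages. Its level was 7.80, 8.07 and 7.63 on the null control arrays and 6.82, 6.99 and 6.80 on the null ethanol arrays. The diets were separated by a gap wider than the spread within either, for a change of -0.97 ± 0.12 (SE; 95% interval -1.23 to -0.70) and a limma adjusted p of 0.0388. In wild-type liver Gca was also lower on every ethanol array (7.32, 7.39 and 7.24 against 7.96, 7.61 and 7.80), by a change of -0.47, and the difference between the genotypes had an adjusted interaction p of 0.244. Of the other 7 family members tested, sorcin (Sri, -0.27 ± 0.13) and peflin (Pef1, -0.22 ± 0.11) were nearest to a call. The call of Gca was lost when only the 6 null arrays were fitted, when the replicate number entered the fit and when all 22180 genes were tested. It was also lost when any 1 wild-type ethanol array, any 1 null ethanol array, null control array 1 or null control array 2 was left out. The change of Gca stayed between -1.07 and -0.85 throughout. The 3 neutrophil markers tested had changes of -0.12 to 0.24 and the 20 macrophage markers described below a median of 0.31, and their part in the value of Gca was not tested.

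Beyond Gca, no gene passed, and the next smallest limma adjusted p was 0.144 for Polr2l, which encodes a small subunit shared by the nuclear RNA polymerases. Polr2l read 7.18, 6.92 and 7.01 on control arrays and 6.38, 6.50 and 6.41 on ethanol arrays (-0.60 ± 0.09). All 11 RNA polymerase II subunits tested had negative changes, with a median of -0.10, and 3 of them, Polr2l, Polr2g (-0.26) and Polr2e (-0.28), had an unadjusted p under 0.05. After centring on the median 5 of the 11 were negative and the median was 0.02, so the shared direction of this group depended on the scaling, whereas Polr2l stayed between -0.66 and -0.49 under every setting tried.

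The largest negative changes among genes with an unadjusted p under 0.01 and no overlap between the diets were in 2 genes that male mouse liver expresses strongly. Hsd3b5, which encodes a 3-ketosteroid reductase, read 10.74, 10.97 and 10.18 on control arrays and 7.10, 9.18 and 9.38 on ethanol arrays. Every ethanol array was below every control array, with ethanol array 1 far below the other two, and the change was -2.08 ± 0.48 (limma adjusted p 0.217). Cyp4a12b, a fatty acid hydroxylase of the cytochrome P450 family, read 10.29, 9.65 and 10.06 against 8.03, 9.57 and 8.06. Here ethanol array 2 lay just under the lowest control, and the change was -1.45 ± 0.33 (adjusted p 0.213), with an adjusted p of 0.00889 when that array was left out. Both genes have near-identical neighbours, so part of their signal can come from a copy. The probe sets that list Hsd3b5 together with Hsd3b4 differed in the same direction, with means of 8.03 and 6.51.

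Dusp1 came next. It encodes a phosphatase that switches off MAP kinases and is induced by stress hormones and growth factors within minutes. Its level was 11.00, 10.64 and 11.41 on null control arrays and 9.49, 9.43 and 10.35 on null ethanol arrays, a change of -1.26 ± 0.23 (limma adjusted p 0.178). All 3 control arrays were above all 3 ethanol arrays and above the wild-type arrays, the highest of which read 9.44, and the lowest null ethanol array lay just under that value. In wild-type liver the change was 0.10, and the difference between the responses was -1.36 ± 0.32 with an adjusted interaction p of 0.176. Left without null ethanol array 3, Dusp1 reached an adjusted p of 0.036.

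The upstream 250 bases of Gca, Dusp1 and Hsd3b5, the called gene and a pair of the largest negative changes, show what the promoter search found (RefSeq, GRCm38.p6). Capitals mark a match to a searched motif, and lower case alone means that none of the searched letters occur. Gca starts on the plus strand of chromosome 2 and is shown from chr2:62664077-62664326. Dusp1 lies on the minus strand of chromosome 17 (chr17:26508473-26508722), and Hsd3b5 on the minus strand of chromosome 3 (chr3:98645535-98645784).
Gca: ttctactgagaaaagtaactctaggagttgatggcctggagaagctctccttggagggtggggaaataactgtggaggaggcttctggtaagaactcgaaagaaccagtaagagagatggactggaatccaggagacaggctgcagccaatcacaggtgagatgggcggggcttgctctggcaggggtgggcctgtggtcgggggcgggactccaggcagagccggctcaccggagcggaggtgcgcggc
Dusp1: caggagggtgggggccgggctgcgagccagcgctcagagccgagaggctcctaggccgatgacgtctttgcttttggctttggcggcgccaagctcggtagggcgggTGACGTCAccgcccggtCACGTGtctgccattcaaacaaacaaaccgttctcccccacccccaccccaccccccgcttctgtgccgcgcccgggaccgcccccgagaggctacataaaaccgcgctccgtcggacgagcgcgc
Hsd3b5: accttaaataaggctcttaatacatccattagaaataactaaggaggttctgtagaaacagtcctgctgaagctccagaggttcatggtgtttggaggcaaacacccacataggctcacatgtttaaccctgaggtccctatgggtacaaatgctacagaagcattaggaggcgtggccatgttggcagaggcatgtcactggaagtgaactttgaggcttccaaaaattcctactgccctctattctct
The motifs were the cAMP response element TGACGTCA, the E-box CACGTG, the STAT5 motif TTCNNNGAA, the glucocorticoid receptor motif and the CArG box of serum response factor, each sought on both strands of the 250 bases before and 50 bases after the start, where matches of different motifs may overlap. The Dusp1 promoter held the cAMP response element with its first base at -143 and an E-box with its first base at -126. Among 21 immediate early genes with a promoter in the table, 3 held the cAMP response element (Dusp1, Btg2 and Maff) and 6 an E-box, against 2.03% and 8.09% of 27025 genes. The STAT5 motif was found in 1 of 13 male-biased genes and in 9.55% of all genes, the glucocorticoid motif in 1 of the 21 immediate early genes and 0.537% of all genes, and the CArG box in 2 of the 21 and 1.81% of all genes. A match describes letters in this window and shows neither binding nor use.

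The other large negative changes belonged to several functions. Cyp7a1, the rate-limiting enzyme of bile acid synthesis, read 12.25, 12.26 and 11.81 on control arrays and 11.37, 11.18 and 11.14 on ethanol arrays, a change of -0.88 ± 0.22. Got1, the cytosolic aspartate aminotransferase that takes part in moving reducing equivalents into mitochondria, read 11.81, 11.50 and 11.38 against 10.97, 10.47 and 11.04, a change of -0.74 ± 0.15. For both, all ethanol arrays lay below all controls. The remaining genes of this rank were Adgrf1, an adhesion receptor (-1.18), H2ac21, a histone H2A gene (-0.94), Ube2u, a ubiquitin-conjugating enzyme (-0.92), Oasl1, an interferon-induced inhibitor of antiviral signalling (-0.78), Arl2bp, which binds the small GTPase ARL2 (-0.74), and Trim12a, a tripartite motif protein (-0.74). Ube2u lay below the brightness filter on all 3 ethanol arrays, and Adgrf1 on 2 of the 3 (4.94 and 5.32), so their changes are set against signals that were not above the filter. A second, dim probe set of H2ac21 had a change of 0.04. Adjusted p-values of these 8 genes in limma ran from 0.177 for Ube2u to 0.293 for Adgrf1 and Oasl1.

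In the values as deposited, positive changes were fewer and smaller than negative ones, a balance that depended on the scaling as given above. Cyp2b10, a cytochrome P450 that the receptor CAR induces in response to drugs, read 5.89, 5.58 and 4.69 on null control arrays and 6.63, 8.28 and 6.56 on null ethanol arrays. All ethanol arrays were above all controls, of which 2 were below the brightness filter, and the change was 1.77 ± 0.43 (limma adjusted p 0.248). In wild-type liver it was 1.56 ± 0.43, set against control values of 4.96, 5.65 and 5.47 that were all below the filter, so the size of neither change is firm. Of 15 targets of the receptors CAR and PXR tested, 8 had positive and 7 negative changes in null liver, from -0.92 to 1.77. Their median was 0.03, and 1 was higher and 1 lower at an unadjusted p under 0.05. Il1r1, the signalling receptor for interleukin 1, read 9.69, 9.06 and 9.37 against 10.53, 11.13 and 9.70, so that ethanol array 3 lay barely above control array 1 and the change was 1.08 ± 0.33. N4bp2l1 read 9.54, 9.14 and 8.92 against 9.84, 10.05 and 9.90, a change of 0.73 ± 0.16 beside 0.03 in wild-type liver (adjusted interaction p 0.212).

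The remaining positive changes belonged to several functions. Vldlr, a receptor that takes up triglyceride-rich lipoproteins, read 6.29, 6.53 and 6.45 on control arrays and 7.45, 6.88 and 6.85 on ethanol arrays (0.64 ± 0.15), and its wild-type change was 0.65. Pparg, the receptor that drives fat storage and a relative of the missing one, read 8.87, 9.14 and 8.72 against 9.64, 9.51 and 9.25 (0.56 ± 0.17). Nampt, the rate-limiting enzyme of NAD+ salvage, read 9.98, 9.48 and 9.51 against 10.26, 10.12 and 10.20 (0.54 ± 0.15), with a wild-type change of -0.07 and an adjusted interaction p of 0.244. Each of these 3 genes was higher on every ethanol array than on any control array. Others of this rank were Rabggtb, a subunit of the enzyme that attaches lipid anchors to Rab proteins (0.94), Cyp2c38, a cytochrome P450 (0.63), Etfbkmt, a methyltransferase of a mitochondrial electron carrier (0.60), Acta1, skeletal muscle actin (0.54), Lrfn1, a synaptic adhesion protein (0.53), and Csf2rb2, a receptor subunit for interleukin 3 (0.50). Lrfn1 lay below the brightness filter on 2 of the 3 null control arrays and Csf2rb2 on 1 of the 3. Their changes are thus set against signals that were partly not above the filter. A second probe set that lists Rabggtb together with the snoRNA gene Snord45c had a change of -0.08, so the value of Rabggtb depends on the probe set.

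**Figure D2:**
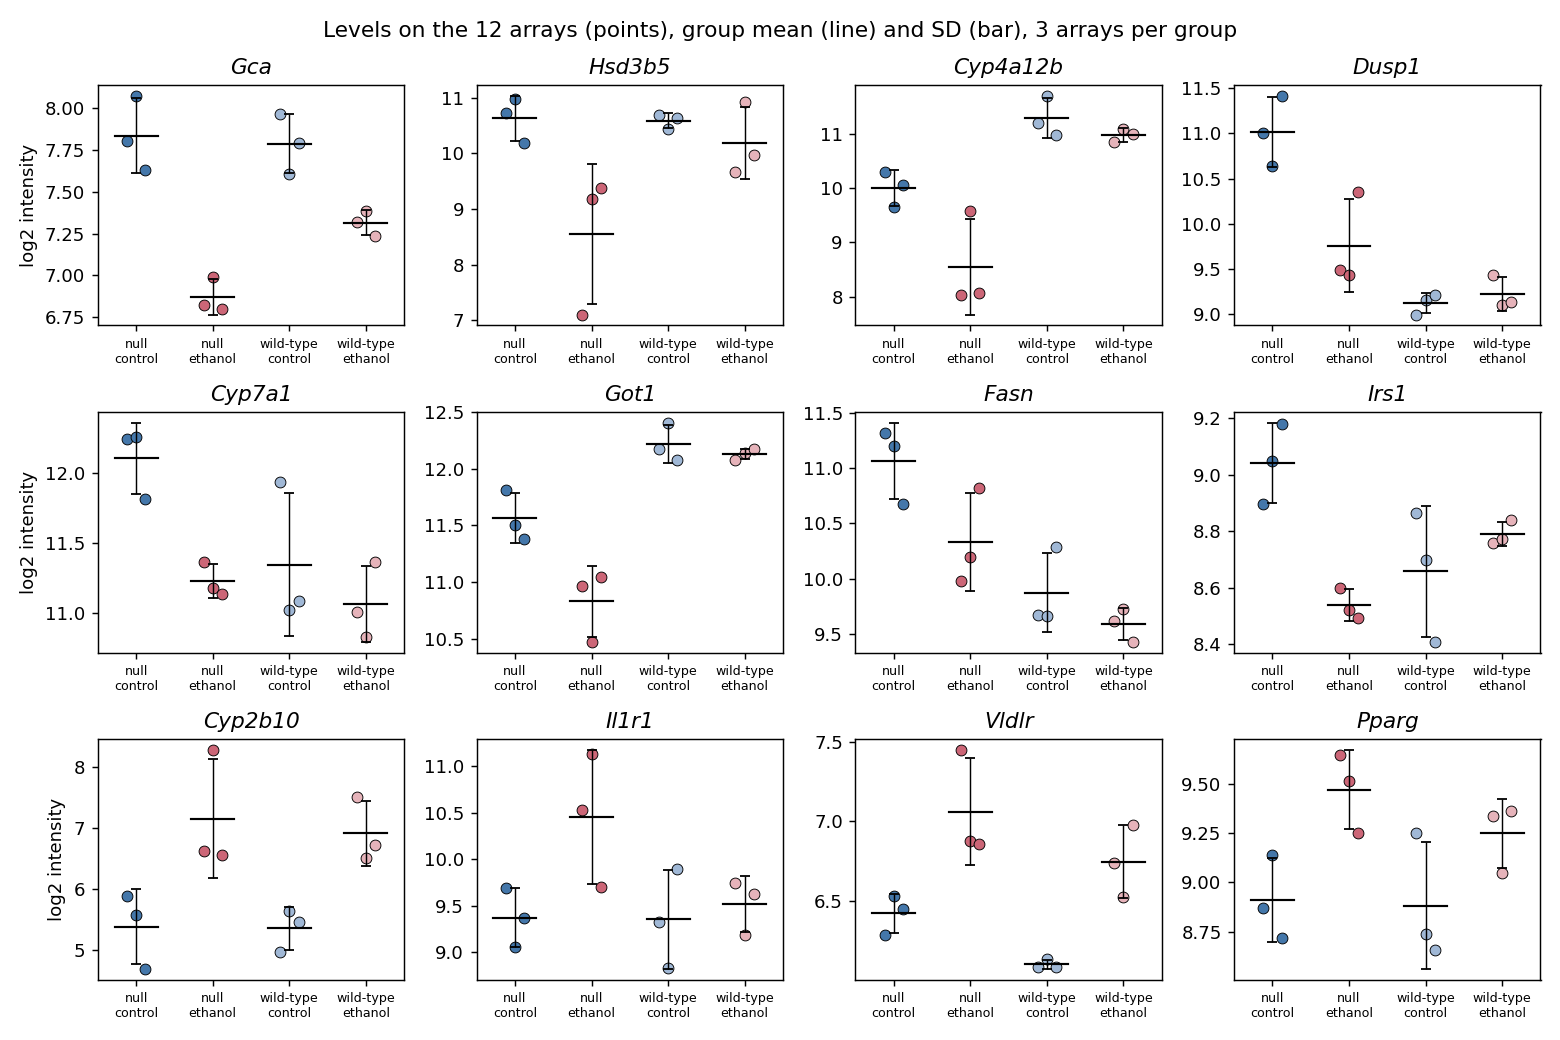
Log2 intensity of 12 genes on each array (points), with the mean (line) and SD (bar) of the 3 arrays per group, for null control, null ethanol, wild-type control and wild-type ethanol. Dusp1 lies between 10.64 and 11.41 on null control arrays and at no more than 9.44 on wild-type arrays, while Cyp2b10 is higher with ethanol in both genotypes.

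Genes of the ethanol pathway mostly differed little between the diets. Cyp2e1 read 13.93, 13.95 and 13.90 on control arrays and 13.95, 13.92 and 14.03 on ethanol arrays, a change of 0.04 (95% interval -0.12 to 0.20), close to the brightest values on the arrays. Adh1, the main alcohol dehydrogenase of liver, had a change of -0.02 ± 0.08 and Aldh2, the mitochondrial aldehyde dehydrogenase, one of 0.02 ± 0.07, with overlapping diets. A second and dimmer probe set of Aldh2 went from a mean of 8.73 to 9.33, so the probe sets of this gene disagreed. Of 13 genes of ethanol and acetaldehyde oxidation tested, Aldh1b1, another mitochondrial aldehyde dehydrogenase, was the member with an unadjusted p under 0.05. It was lower on all ethanol arrays (7.14, 7.16 and 7.38 against 8.03, 7.41 and 7.47), with a change of -0.41 in both genotypes. With the probe sets of each gene averaged, Aldh2 (0.31 ± 0.10) and Aldh3a2, a fatty aldehyde dehydrogenase named here after its values were seen (0.24 ± 0.11), were higher at that threshold beside Aldh1b1, 3 of 12 genes, so the count depended on the probe sets.

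Targets of the PPAR receptors also lay near the background in null liver. None of 21 PPARα targets and fatty acid oxidation genes had an unadjusted p under 0.05 in either direction, where the background is 3.81% higher and 8.37% lower. Their median change was -0.08 and became 0.04 after centring on the median and 0.02 with array weights. The ethanol arrays differed, since their median deviation from the control mean was 0.13 and 0.05 on null ethanol arrays 1 and 2 but -0.34 on array 3. In wild-type liver the median of the list was 0.15, and for 4 of the 21 the difference between the genotypes had an unadjusted p under 0.05, where the background is 15%. Pdk4, a kinase that shuts pyruvate out of oxidation and a classical PPAR target, read 7.40, 8.48 and 8.83 against 7.71, 8.08 and 7.42 (-0.50 ± 0.30), and Angptl4, a secreted inhibitor of lipoprotein lipase, had a change of -0.08 ± 0.22. Both overlapped between the diets. Of 9 PPARβ/δ targets, Abca1, the exporter of cholesterol to high-density lipoprotein, was lower at an unadjusted p under 0.05 (10.68, 10.76 and 10.78 against 10.58, 10.55 and 10.51), a change of -0.19.

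Of 19 lipogenesis genes, which build fatty acids and triglycerides, 14 had negative and 5 positive changes, from -0.73 to 1.19. The positive changes, among them the largest of the list in size, all overlapped between the diets. The median of the 19 was -0.16, and 4 were lower at an unadjusted p under 0.05 and 0 higher. Acly, which supplies cytosolic acetyl-CoA, read 10.57, 10.20 and 10.26 on control arrays and 9.79, 9.76 and 9.99 on ethanol arrays, without overlap, a change of -0.50 ± 0.11 (limma adjusted p 0.213). Fasn, fatty acid synthase, read 11.32, 11.20 and 10.68 against 9.98, 10.19 and 10.82 (-0.73 ± 0.23), and Elovl6, a fatty acid elongase, read 11.19, 10.95 and 10.64 against 9.82, 10.02 and 10.90 (-0.68 ± 0.23). For both, ethanol array 3 lay above control array 3 while the other ethanol arrays lay below every control. Agpat2, an acyltransferase of triglyceride synthesis, had a change of -0.27 without overlap. The median of the list stayed negative under each scaling, down to a size of -0.05 after centring, and 7 members were lower at an unadjusted p under 0.05 without null control array 3.

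The 19 genes of lipid droplets and fat uptake had a median change of 0.11, with 13 positive, and Vldlr was the member with an unadjusted p under 0.05. Cd36, a fatty acid transporter, read 10.68, 9.51 and 9.74 on control arrays and 11.54, 11.22 and 9.75 on ethanol arrays, a change of 0.86 ± 0.40 in which ethanol array 3 lay among the controls. In wild-type liver the median of the list was 0.24. The number of lipid droplet and fat uptake genes higher at that threshold was 5 without null ethanol array 3 and 4 after centring on the median.

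Cholesterol synthesis and uptake genes had negative changes in 17 of 18 members, with a median of -0.25 in null liver and -0.21 in wild-type liver. At an unadjusted p under 0.05 were Ebp (-0.25 ± 0.09) and Sc5d (-0.25 ± 0.11), which encode late enzymes of sterol synthesis, and both were lower on all ethanol arrays. The next members, Pmvk (-0.36 ± 0.19) and Nsdhl (-0.52 ± 0.29), enzymes of mevalonate and sterol conversion, overlapped between the diets. The 2 of 18 lower are a share near the background of 8.37%. The count rested on control array 3, on which Nsdhl read 9.21 beside 10.28 and 10.50: without that array 10 of the 18 cholesterol synthesis and uptake genes were lower at an unadjusted p under 0.05. It also depended on scaling, with 1 lower after quantile normalisation or cyclic loess and 0 after centring on the median. The list median stayed negative under these scalings, at -0.17, -0.17 and -0.13.

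Glucose output and insulin signalling included 4 genes of 15 that were lower at an unadjusted p under 0.05, 0 that were higher, and a median of -0.15. Irs1, the docking protein of the insulin receptor, read 8.89, 9.05 and 9.18 on control arrays and 8.60, 8.52 and 8.49 on ethanol arrays, without overlap, a change of -0.50 ± 0.11. Its wild-type change was 0.13, and the adjusted interaction p was 0.176. A second, dim probe set of Irs1 had a change of 0.02, and with both averaged the change was -0.24. G6pc, the enzyme that releases free glucose, read 12.89, 13.33 and 13.21 against 11.84, 12.52 and 12.97, with 1 ethanol array among the controls, a change of -0.70 ± 0.22. Igfbp1, a binding protein for insulin-like growth factors that insulin represses, had a change of -1.13 ± 0.50, and Pygl, liver glycogen phosphorylase, one of -0.32 ± 0.09. The list median stayed negative under each scaling.

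Of 16 bile acid synthesis and transport genes, Cyp7a1 and Akr1d1, which reduces bile acid intermediates (-0.38 ± 0.17), were lower at an unadjusted p under 0.05. The median of the group, -0.09, became 0.02 after centring on the median, where 1 member was higher and 1 lower at that threshold. Among genes of the methionine and one-carbon cycle, 3 of 15 were lower at that threshold. They were Shmt1, a serine hydroxymethyltransferase (-0.31), Cth, which releases cysteine from cystathionine (-0.38), and Cbs, which forms cystathionine (-0.22). The median of this list too changed sign after centring (-0.10 to 0.01). The number of its members lower at that threshold was 2 after quantile normalisation or cyclic loess and 0 after centring. Of 11 periportal hepatocyte genes tested, 9 had negative changes, with a median of -0.13 that became -0.01 after centring. At an unadjusted p under 0.05, 2 of them, Hal and Ass1, were lower and 0 higher. Hal, histidine ammonia lyase, read 11.64, 11.59 and 11.81 on control arrays and 11.35, 11.33 and 11.14 on ethanol arrays (-0.41 ± 0.09), while its wild-type change was 0.14. The urea cycle gene Ass1 had a change of -0.51 in null and 0.37 in wild-type liver. The adjusted interaction p was 0.17 for both.

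**Figure D3:**
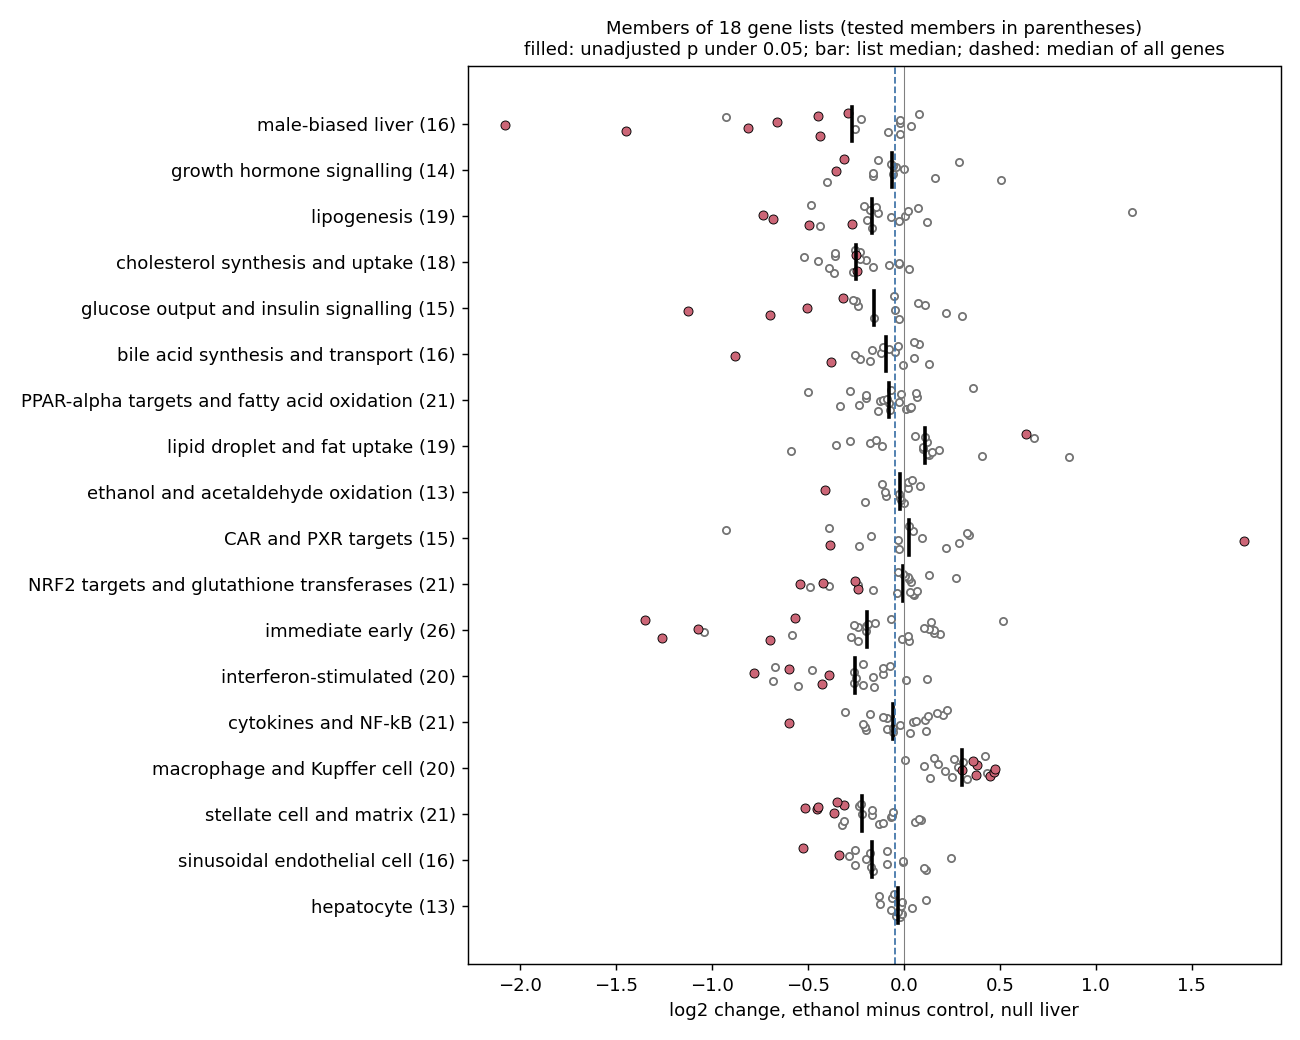
Change with ethanol in null liver (log2, ethanol minus control) of each tested member of 18 gene lists; filled points have an unadjusted p under 0.05, bars are list medians and the dashed line is the median of all genes tested (-0.05). Macrophage and Kupffer cell genes are all above 0, and the medians of male-biased liver (-0.27), interferon-stimulated (-0.25) and cholesterol genes (-0.25) lie farthest below it.

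Male-biased liver genes, which in males are kept high by pulses of growth hormone acting through STAT5b, were lower with ethanol in 14 of 16 members tested, with a median of -0.27, and 7 of the 16 had an unadjusted p under 0.05 in that direction. Besides Hsd3b5 and Cyp4a12b, Serpina1e, a protease inhibitor, read 11.79, 11.71 and 11.74 on control arrays and 11.01, 11.55 and 11.34 on ethanol arrays (-0.45 ± 0.13; wild-type 0.21, adjusted interaction p 0.191). Mup21, a urinary pheromone carrier of a family of near-identical genes, had a change of -0.66 ± 0.22 with overlap. It lay below the brightness filter on 1 null ethanol array. In wild-type liver the list had a median of -0.20, and Mup21 had a larger change there, -1.22. Among 14 growth hormone signalling genes, Stat5b itself (9.78, 9.69 and 9.74 against 9.28, 9.42 and 9.57, a change of -0.31 ± 0.11) and Igfbp3 (-0.35 ± 0.15), a carrier of insulin-like growth factors, were lower at an unadjusted p under 0.05, and the growth hormone receptor Ghr had a change of -0.16. After centring on the median 0 of these 14 had an unadjusted p under 0.05. Of 8 female-biased genes bright enough to be tested, 5 had positive and 3 negative changes, down to -0.52. Their median was 0.20 in null and 0.52 in wild-type liver. Slc22a26, an organic anion transporter, was higher at an unadjusted p under 0.05 (0.54 ± 0.21). Without overlap between the diets 1 member was higher and 1 lower. With the 6 null arrays alone 1 was higher and 1 lower at that threshold, and with the filter at the 60th percentile 0 of 6 were. The count of male-biased liver genes at that threshold was 4 of 16 without null control array 2 or without null ethanol array 1.

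Immediate early genes, which cells switch on within minutes of a stimulus, were lower at an unadjusted p under 0.05 in 5 of 26 members and higher in 0. After Dusp1, Jun, a subunit of the transcription factor AP-1, read 8.91, 10.17 and 10.58 on control arrays and 8.86, 8.43 and 9.15 on ethanol arrays (-1.07 ± 0.37), so that control array 1 lay among the ethanol arrays. Ccn1, a secreted matrix protein, had the same order, with 8.54, 9.64 and 9.48 against 8.30, 8.33 and 8.95 (-0.70 ± 0.29), and Zfp36, which destabilises cytokine messages, read 11.29, 10.64 and 11.26 against 10.39, 10.60 and 10.51 (-0.57 ± 0.25). The fifth member, Nr4a1, an orphan nuclear receptor named here after its values were seen, had a change of -1.35 with overlap. The median of the list was -0.19 in null and 0.16 in wild-type liver, and for 7 of the 26 the difference between the genotypes had an unadjusted p under 0.05, against a background of 15%. The immediate early count depended on single arrays: without null control array 3 it was 1, and without null ethanol array 1 or 2 it was 2. It also depended on scaling, since after centring on the median 5 were higher and 2 lower.

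Of 18 dual specificity phosphatases, Dusp6 (9.88, 10.81 and 10.70 against 9.43, 9.34 and 10.14, a change of -0.82 ± 0.25) and Dusp10 (-0.36 ± 0.16) followed Dusp1 below the unadjusted threshold, and each overlapped between the diets. A second, dim probe set of Dusp6 had a change of -0.02. The phosphatase list depended on scaling, with 1 higher and 2 lower after quantile normalisation and 3 higher and 2 lower after centring on the median. Of 17 targets of glucocorticoids, the adrenal stress hormones, 4 were lower at that threshold (Dusp1, Sgk1, G6pc and Igfbp1) and Zbtb16 was higher. Sgk1, a serum-induced kinase, read 7.95, 7.99 and 8.21 against 7.08, 7.57 and 7.63 (-0.63 ± 0.17), whereas Zbtb16, a transcription factor, read 8.78, 7.89 and 8.08 against 10.30, 10.52 and 8.13 (1.40 ± 0.50), with ethanol array 3 among the controls. Clock genes and chaperones of the endoplasmic reticulum each had 0 members at an unadjusted p under 0.05, of 17 and 18 tested. The nearest clock genes were Arntl (6.85, 7.57 and 8.22 against 6.55, 7.12 and 6.80) and Clock (-0.24 ± 0.13). The labels do not give the time of day at which livers were taken.

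Markers of liver macrophages lay higher on the ethanol arrays in 20 of 20 members of the macrophage and Kupffer cell list, with a median of 0.31, and 7 had an unadjusted p under 0.05. Cd5l, a secreted protein of Kupffer cells, read 8.98, 8.55 and 8.74 on control arrays and 9.03, 9.30 and 9.36 on ethanol arrays (0.47 ± 0.16; limma adjusted p 0.33), Folr2, a folate receptor, had a change of 0.38 and Marco, a scavenger receptor, one of 0.36, all 3 without overlap. Csf1r, the receptor for the growth factor of macrophages, read 8.92, 8.45 and 8.57 against 8.87, 8.96 and 9.54 and overlapped. Taken array by array, the median of the 20 levels ran from 7.98 to 8.39 in controls and from 8.11 to 8.54 with ethanol, so the groups overlapped. In whole tissue, more cells of a type and more of its RNA per cell cannot be told apart. The macrophage and Kupffer cell count was 0 of 20 without null control array 2, 1 without null ethanol array 3, 2 without null ethanol array 2, and 12 after centring on the median. In wild-type liver the median was 0.19, and the difference between the genotypes had an unadjusted p under 0.05 for 0 of the 20, where the background is 15%.

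Stellate cell and matrix genes lay lower on the ethanol arrays in 18 of 21 members, with a median of -0.22 beside 0.08 in wild-type liver (-0.005 without wild-type control array 3), and 6 had an unadjusted p under 0.05 and 0 the reverse. Timp2, an inhibitor of metalloproteinases, read 7.97, 7.89 and 7.93 against 7.39, 7.68 and 7.68 (-0.35 ± 0.10), and Mmp2, a gelatinase, read 7.31, 7.60 and 7.09 against 6.84, 7.13 and 6.48 (-0.51 ± 0.16), where control array 3 and ethanol array 2 overlapped. Hgf, hepatocyte growth factor (-0.36), and Lum, the matrix protein lumican (-0.45), were lower without overlap. The difference between the genotypes had an unadjusted p under 0.05 for 6 of the 21 genes (background 15%), with an adjusted interaction p of 0.27 for Lum. Among 16 markers of sinusoidal endothelial cells, Tek, the angiopoietin receptor (8.00, 7.78 and 7.86 against 7.23, 7.20 and 7.64), and Pecam1, an adhesion molecule (-0.34 ± 0.12), were lower without overlap, and the median was -0.16. The ethanol arrays did not go the same way here: the median deviation of the endothelial list from the control mean was -0.32 and -0.46 on ethanol arrays 1 and 2 but 0.38 on ethanol array 3, above every control array. Without ethanol array 3, 10 of the 16 endothelial markers were lower at an unadjusted p under 0.05. The median level of the stellate cell and matrix list on a null array lay between 7.08 and 7.60, at the edge of the third brightness group (7.44 to 8.87), and the part of the brightness trend in these medians was not tested. Their medians were -0.12 and -0.06 after quantile normalisation.

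Interferon-stimulated genes lay lower in 18 of 20 members, with a median of -0.25 in null liver. The wild-type median of -0.23 rested largely on wild-type control array 2, where the list's median level was 8.63 beside 7.44 and 7.51 on the other controls, and was -0.05 without that array. At an unadjusted p under 0.05 were Herc6, a ubiquitin-like ligase (7.93, 7.48 and 7.61 against 7.07, 7.38 and 7.29), Oasl1 (8.68, 8.36 and 8.10 against 7.46, 8.07 and 7.26), Rtp4 (-0.60 ± 0.21) and the antiviral GTPase gene Mx2 (-0.39 ± 0.16). The first 3 were lower on every ethanol array than on any control array, while the list's median on ethanol array 2 was -0.05 from the control mean, beside -0.32 and -0.41 on the others. Mx2 lay below the brightness filter on 1 null control and 2 null ethanol arrays, so the size of its change is not firm. Of 21 cytokines and NF-κB targets, Il1a, interleukin 1 alpha, was lower at that threshold (6.59, 7.08 and 7.39 against 6.25, 6.14 and 6.88), while its receptor gene Il1r1 had the positive change given above. After centring on the median 4 of the 21 cytokine genes were higher at that threshold and 0 lower. The count of interferon-stimulated genes was 7 without null ethanol array 2 and 8 without wild-type control array 2.

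**Figure D4:**
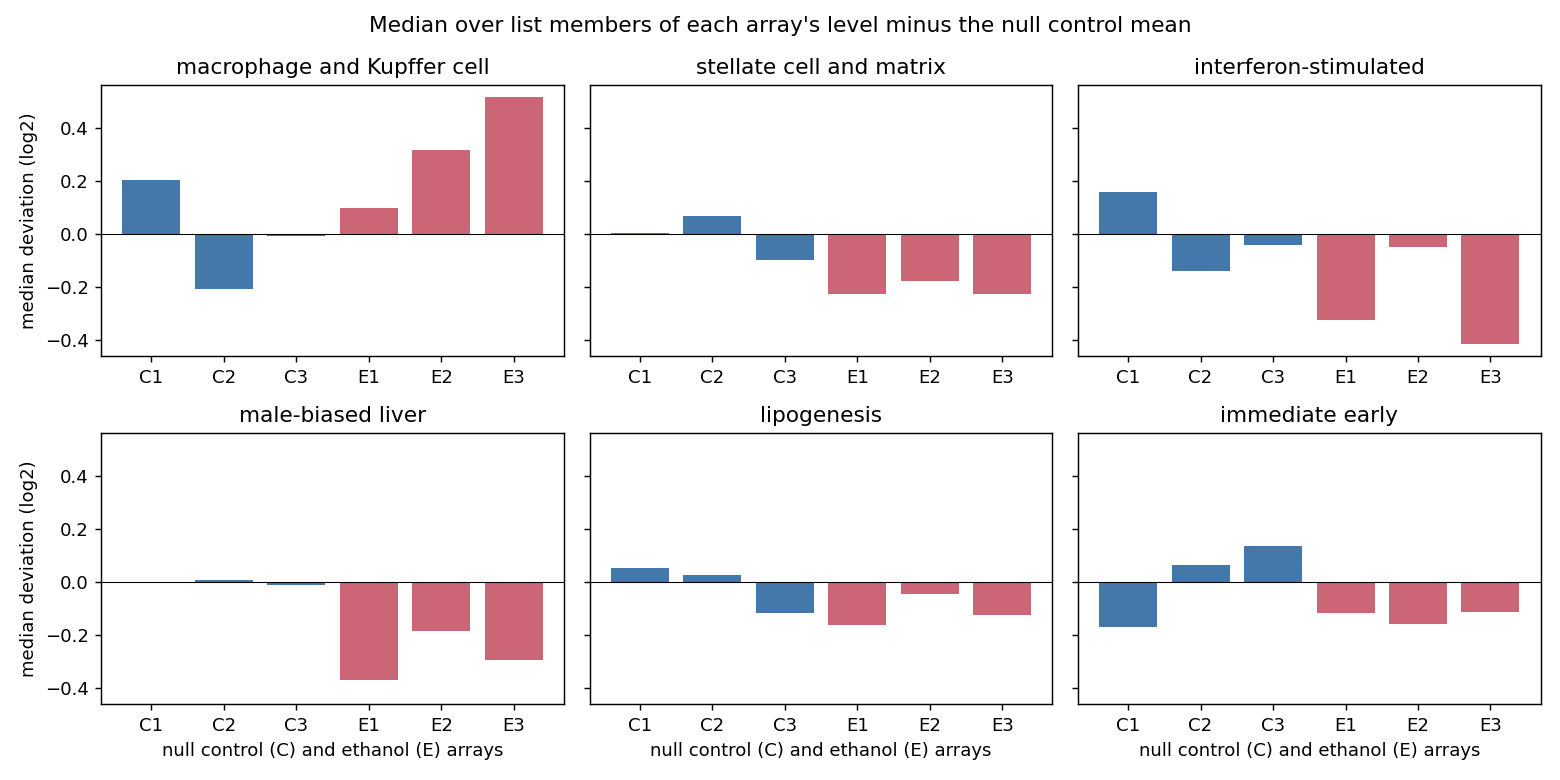
Median over list members of each null array's log2 level minus the null control mean, for 6 gene lists, with C1 to C3 the control and E1 to E3 the ethanol arrays. Male-biased liver genes are between -0.37 and -0.19 on all ethanol arrays, whereas macrophage and Kupffer cell genes on control array 1 (0.21) lie above ethanol array 1 (0.10).

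Among defence genes against reactive compounds, 4 of 21 NRF2 targets and glutathione transferases were lower at an unadjusted p under 0.05 and 0 were higher, with a median of -0.002. After centring on the median 1 was higher and 2 were lower, with a median of 0.11, and 2 were lower when the 6 null arrays were fitted alone. All 4 were glutathione transferases, enzymes that couple glutathione to reactive compounds: Gstm6 (6.89, 6.91 and 6.82 against 6.41, 6.44 and 6.15), Gstm7 (-0.42 ± 0.14), Gstm1 (-0.24 ± 0.09) and Gstt1 (-0.26 ± 0.11). In wild-type liver Gstm1 and Gstt1 had changes of 0.30 and 0.25, and their adjusted interaction p-values were 0.176 and 0.206. Members of the Gstm family resemble each other closely, so their values are not independent. Of 21 genes of heme synthesis and iron handling, 12 had positive changes, the median was 0.03, and 2 were lower and 0 higher at an unadjusted p under 0.05, a share near the background. After centring on the median 3 were higher and 2 lower. The lower members were Hamp2 and Hjv. Hamp2, a hepcidin gene, read 10.66, 9.27 and 9.02 on control arrays and 8.34, 7.64 and 8.86 on ethanol arrays (-1.37 ± 0.48), and Hjv, the hemojuvelin gene that drives hepcidin expression, had a change of -0.43 ± 0.14. Ces2a, a carboxylesterase and the lower member of the CAR and PXR targets given above, had a change of -0.38 beside 0.21 in wild-type liver (adjusted interaction p 0.184).

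The response of null liver was set against that of wild-type liver across all genes. Between the null and the wild-type change Pearson's r was -0.01 and Spearman's rho -0.07 over 14031 genes, which are not independent of each other, and the responses share no arrays. The sign was the same for 46.7% of all genes and for 750 (43.9%) of the 1709 genes at an unadjusted p under 0.05 in null liver. In wild-type liver 2035 genes were at that threshold. Of 237 genes at that threshold in both genotypes, 103 had the same sign and 134 opposite signs. Lists of these sizes drawn at random from the genes tested would share about as many, so the overlap is near its background. A test of the difference between the responses called 2 genes, both snoRNA genes (0.0143% of those tested). Cyp2b10, Vldlr, Rabggtb and Zbtb16 were among the named genes with positive values in both genotypes, and their null changes minus their wild-type changes were 0.21 ± 0.61, -0.01 ± 0.22, 0.09 ± 0.29 and -0.72 ± 0.71.

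**Figure D5:**
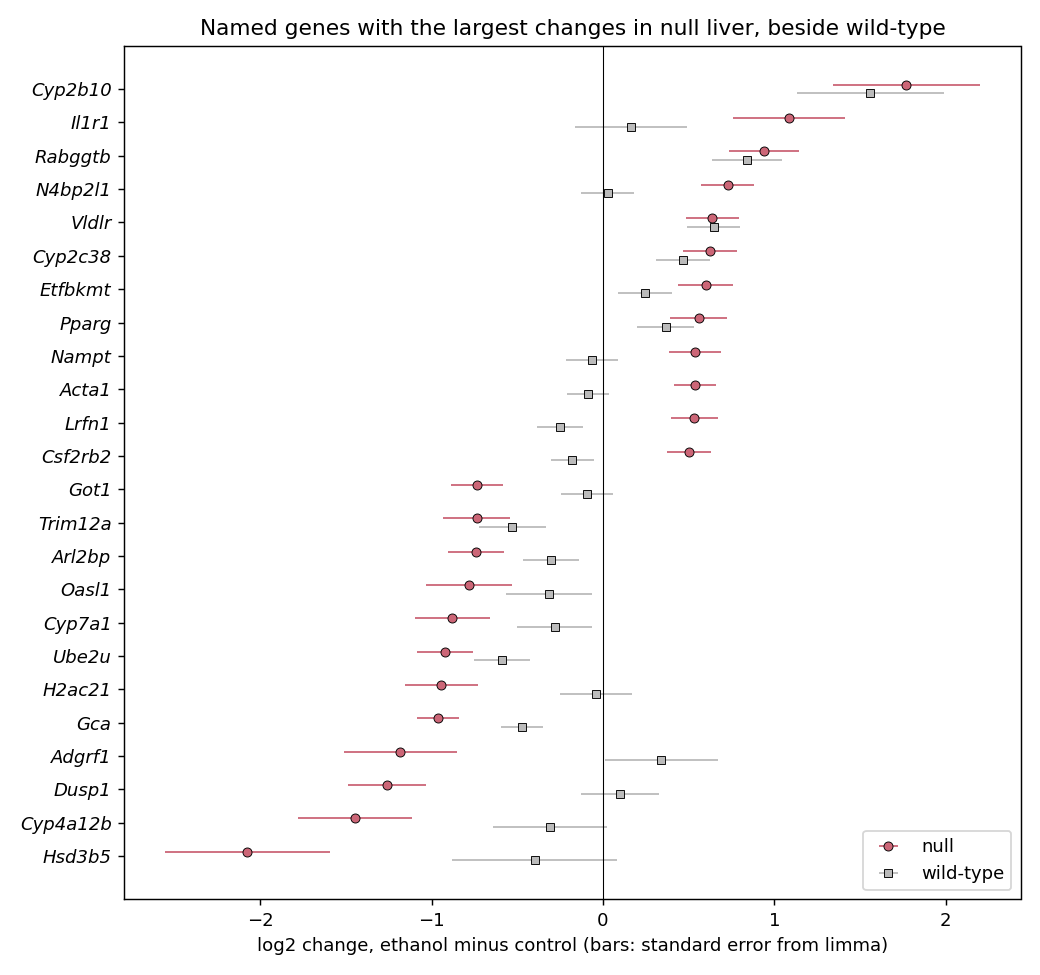
Change with ethanol (log2, ethanol minus control) of 24 named genes in null liver (red circles) and wild-type liver (grey squares), with bars for the standard error from limma. Hsd3b5, Adgrf1 and Dusp1 have the widest gaps between the genotypes of the 24, with Adgrf1 below the brightness filter on 2 null ethanol arrays, and Vldlr is at 0.64 in null and 0.65 in wild-type liver.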

How the data were processed

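The 12 liver arrays were grouped by their labels. The deposited values are 1 intensity per probe set and array on the linear scale. The submitters' processing notes name RMA for normalisation; its software, version and settings and the genome build are not given in the sources. RMA equalises the arrays over all probe sets, so a change shared by most genes is removed or shows up as a shift of bright against dim genes. Log2 was taken here. Of 41345 probe sets 23521 name 1 gene, and each gene took the probe set with the highest mean over the 12 arrays (1082 genes had several). Genes were tested if above the 40th percentile of their array on at least 3 arrays, a cut of 5.61 to 5.72.

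A linear model with 4 group means was fitted in limma 3.58.1 (R 4.3.3) to the 12 arrays, with 8 residual and 4.95 prior degrees of freedom and no replicate block, and p-values were adjusted by Benjamini-Hochberg over the 14031 genes tested. The median standard error of a change was 0.116, and the number of arrays limits this precision. The fit was tested on simulated data.

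Named genes were those called, the 12 largest positive and 12 largest negative changes among the 431 genes with an unadjusted p under 0.01 and no overlap between the diets (predicted genes, clone names, small RNAs and receptor segment families counted but not named), at most 4 members per described list, those of smallest p, and also Ppard, Cyp2b10, Cyp2e1, Adh1, Aldh2, Angptl4 and Pdk4. The members and lists were chosen with earlier results of these data known. Lists are described by counts and medians beside all genes tested, without a set test. Promoters were read from a RefSeq table. Alternatives covered the arrays fitted, the filter, the moderation, array weights, scaling, probe set choice and leaving out each array.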

Additional observations from a re-analysis of the deposited data

Results flagged for a closer look

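The difference between the ethanol responses of the genotypes passed for a pair of small nucleolar RNA genes. For Snord53 the null response minus the wild-type response was -1.80 ± 0.24 (limma adjusted interaction p 0.0484). Its level in null liver was 11.95, 12.00 and 11.90 on control arrays and 11.87, 11.90 and 11.22 on ethanol arrays, while in wild-type liver it was 6.78, 7.26 and 6.90 on control arrays and 8.46, 8.65 and 8.37 on ethanol arrays. For Snord111 the difference was -1.55 ± 0.21 (adjusted interaction p 0.0484), with null values of 5.72, 5.87 and 5.92 on control arrays against 5.54, 5.35 and 4.87 on ethanol arrays, and a wild-type change of 0.97. Snord111 lay below the brightness filter on all 3 null ethanol, all 3 wild-type control and 2 of the 3 wild-type ethanol arrays. The size of this difference, and of the wild-type change, is thus set against signals that were not above the filter. Neither call was firm: the number of genes called for this difference was 0 with the stricter filter, after centring on the median, with 16 added before log2 and when any 1 of 9 of the 12 arrays was left out. Over 70 snoRNA genes tested the median change was 0.04 in null and 0.87 in wild-type liver. Most snoRNA genes lie in introns of other genes, and the arrays read both.

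Among 6899 probe sets that list several genes or none, which entered no comparison above, 1 passed limma's adjusted p under 0.05. Probe set 17270116, with no gene listed, read 7.52, 7.63 and 7.34 on null control arrays and 6.02, 6.58 and 6.26 on null ethanol arrays, a change of -1.21 ± 0.14 (adjusted p 0.0328). At an unadjusted p under 0.05 there were 290 such probe sets higher and 311 lower.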

How the results depend on the processing

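The number of genes called for ethanol in null liver was 1 (Gca), and 0 without the brightness filter, with the 6 null arrays alone and with the replicate block. It was 9 with array weights, where Dusp1, Polr2l, Kcnj8, Mef2d, Gask1a, Rassf3, Exph5 and Mir3093 joined Gca, and between 0 and 3 when 1 array was left out, at 3 without null control array 3. The number called for the difference between the genotypes was 2. It was 1 without the filter, 0 with the filter at the 60th percentile, 1 with a trend in the moderation, 38 with array weights, 0 after centring on the median and 0 with 16 added before log2. It ran from 0 to 84 when 1 array was left out, at 84 without wild-type control array 2, which also had the lowest array weight (0.352). Correlations of the deviations of same-numbered arrays lay between -0.11 and 0.19. Arrays of different number were not set beside them, so these values cannot show whether the replicate numbers pair the arrays. The labels give the numbers no meaning, so the replicate block was used only as a check. Direction held for 97 of 100 named genes under every alternative that gave them a value. That was 24 alternatives for 92 of the 100 and 23 for the other 8, left out by the stricter filter. The filters, the moderation, the replicate block, the 6 null arrays alone and each left-out wild-type array cannot alter a null change. The named genes were also mostly chosen by their changes in these data, so this count is no measure of robustness. Angptl4 turned to 0.134 with array weights, 0.038 after centring, 0.014 without null control array 1 and 0.144 without null ethanol array 3, with a range of -0.213 to 0.144 over single arrays left out. Adh1 turned to 0.022 after quantile normalisation, 0.097 after centring and 0.085 with the mean of probe sets, and Aldh2 to -0.0092 without null control array 3, with a range of -0.0092 to 0.048 over single arrays left out. The cause was not tested. Cyclic loess was added after seeing the data. With 3 arrays per diet and signals of dim genes close to background, small changes cannot be separated from the spread.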
